A study of Mus musculus with 12 samples.

Results

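The nuclear genes that encode subunits of the mitochondrial respiratory chain and of ATP synthase were followed in mouse lung without irradiation and 8, 11 and 14 d after it. They were chosen by symbol: names that begin with Nduf and a subunit letter and digit, Sdha to Sdhd, and names that begin with Uqcr, Cox4 to Cox8 or Atp5, without Cox4i2 and with at least 120 counts summed over the 12 libraries. Among 23238 symbols, 83 matched, of which Cox7b2 and Cox8c, with 17 and 3 counts, fell under the minimum, which left 81 genes. All 81 were among the 16484 genes tested. Of these, 35 belong to complex I, 4 to complex II, 8 to complex III, 17 to complex IV (Ndufa4, Ndufa4l2 and the supercomplex factor Cox7a2l included) and 15 to complex V. The other 2, Atp5s and Atp5sl, carry an ATP synthase name but encode factors that are no structural subunits. The name rule does not catch Ndufab1 and Cyc1. Of the 13 subunits encoded by mitochondrial DNA, 0 were in the count files under their mt- symbols, so they were not analysed here.

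The respiratory chain passes electrons from NADH, at complex I, and from succinate, at complex II, through ubiquinone to complex III, then through cytochrome c to complex IV, which reduces oxygen. Complexes I, III and IV pump protons across the inner mitochondrial membrane, and complex V, the ATP synthase, uses the gradient to make ATP. Most subunits are made from nuclear genes in the cytosol and imported. Several subunits of complex IV have paralogs that are found mainly in heart and skeletal muscle, testis or hypoxic cells, while their partners are made in nearly all tissues. In the lung, alveolar type 2 cells and activated immune cells are known for abundant mitochondria.

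RNA was taken from whole lung tissue in 4 groups of 3 libraries: no irradiation (NoIR), and 8, 11 and 14 d after irradiation (IR), the irradiated samples from irradiated areas only. Genotype, strain, age, radiation dose and the area of the control tissue are not stated in the labels. Replicates carry numbers, with no word on separate animals, and a p-value covers only the spread among these samples, possibly a technical one. Libraries held 19624554 to 27765751 counts and detected 18204 to 19288 genes. Surfactant and other alveolar type 2 markers summed to 33342 to 36900 CPM (counts scaled to library size) in NoIR lung and 19166 to 21647 CPM at 14 d, with 5 of 10 called lower, none higher and a median log2 change of -0.42; Sftpd and Cxcl15 among them changed by 0.05 and 0.45. At the same time 10 of 10 endothelial markers were lower and 14 of 14 macrophage markers higher. Of all genes tested 18.9% were called lower and 20.0% higher at 14 d. In such bulk tissue fewer cells of a type and less RNA per cell cannot be told apart. Changes are log2 with their standard error (SE) from edgeR's quasi-likelihood test, and a gene counts as called where its p, adjusted by Benjamini-Hochberg over all genes tested, was below 0.05.

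In TPM, the counts per exon length scaled to the library, the subunit genes spanned a wide range in NoIR lung. The ATP synthase stalk subunit Atp5h had the highest level, 1028 ± 34.03 TPM (SD, n = 3), followed by the complex III subunit Uqcrb at 757 ± 18.9 TPM, Cox6c at 718 ± 26.1 TPM, Cox4i1 at 616 ± 29.9 TPM and the catalytic subunit Atp5b at 594 ± 33.3 TPM. At the low end lay Cox8b (6.34 ± 0.225 TPM), the factors Atp5s (6.69 ± 0.649 TPM) and Atp5sl (7.83 ± 0.639 TPM), then Ndufb2 (8.74 ± 1.19 TPM), Atp5g1 (9.07 ± 1.22 TPM), Cox7a1 (10.8 ± 1.999 TPM) and Ndufa4l2 (24.7 ± 1.94 TPM). The places of Ndufb2 and Atp5g1 rest on exon lengths of 4375 and 4912 bases. By CPM, Ndufb2 (19.3 ± 4.15) lay above Ndufa4l2 (11.6 ± 0.952) in NoIR. Stretches nearly identical to transcripts of other annotated genes, called copies here, make some counts uncertain. Of the 81 transcripts 28 have a stretch of at least 100 bases that is at least 97% identical to such a transcript. In Atp5f1, Atp5h, Atp5l, Atp5o, Ndufs3 and Uqcrb copies cover 50% or more of the transcript. Genes that overlap at the same locus were not left out of this search, and the genome itself was not searched. In Ndufb6, for example, 39.0% of the transcript lay in a copy and 39.0% of the exons overlapped Smim27 on the other strand. Exons of 21 genes overlap a gene on the other strand, and whether the counting used strand is not stated. Summed over all 81 genes, the level was 8199 ± 774 CPM in NoIR, 9794 ± 2007 on day 8, 10815 ± 315 on day 11 and 9293 ± 1605 on day 14 (SD, n = 3). As a share of all counts that was 0.818% ± 0.0649 in NoIR, 1.01% ± 0.198 on day 8, 1.05% ± 0.0298 on day 11 and 0.922% ± 0.129 on day 14. The 11 d libraries lay close together, whereas the spread at 8 d and 14 d overlapped the controls.

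Most subunit genes had a log2 change above 0 at each time, while in the fit of all 12 libraries a larger share was called higher than among all genes at 11 d alone, and not without NoIR replicate 1. At 8 d, 8 of 81 were called higher and 1 lower, against 13.0% and 10.6% of all genes tested, and the median log2 change was 0.25 beside 0.01 for all genes. At 11 d, 27 were called higher and 1 lower, against 19.4% and 17.8% of all genes, and the median was 0.40 beside -0.01. At 14 d, 6 were higher and 6 lower, against 20.0% and 18.9%, and the median was 0.16 beside 0.01. The log2 change was above 0 in 71, 72 and 62 of 81 genes at the 3 times. All 3 irradiated libraries lay above all 3 controls for 20 genes at 8 d (19.8% of all genes did), 59 at 11 d (28.2%) and 16 at 14 d (25.8%). The share called higher thus stood under the background at 8 d and 14 d and over it at 11 d. Without NoIR replicate 1 it stood under the background at 11 d as well, at 12.3% of the subunit genes and 15.3% of all genes. In the other 11 fits without 1 library it stayed over the background at 11 d. At 8 d it stood over the background with DESeq2 (18.5% beside 14.3%), with library size alone (22.2% beside 14.8%), without 8 d replicate 1 and, by a smaller margin, without 14 d replicate 2 or 3, and at 14 d it was under it in all 22 alternative settings.

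Atp5g1, Cox6b2 and Uqcrc1 were called higher at all 3 times, Ndufa4l2 was called lower at all 3, and 47 genes were called at none. The same counts over all genes tested are not given here, so these counts do not set the subunit genes apart. A joint test of the 4 groups called 19 of the 81 genes, against 39.2% of all genes. The counts depended on single libraries. Without NoIR replicate 1 the genes called higher fell to 1 at 8 d, 10 at 11 d and 1 at 14 d, where 9.05%, 15.3% and 17.0% of all genes were called higher. Without NoIR replicate 2 they were 4 at 8 d (9.21% of all genes). Without NoIR replicate 3 they were 3, 17 and 2 at the 3 times, where 11.2%, 17.1% and 18.3% of all genes were. Leaving out 8 d replicate 1 gave 20 at 8 d, or 24.7% beside 11.5% of all genes. Leaving out 8 d replicate 2 gave 3 at 8 d, 46 at 11 d and 14 at 14 d, beside 11.2%, 20.9% and 21.3% of all genes. Without 11 d replicate 1 or 3 there were 15 or 17 at 11 d, beside 14.7% or 16.9% of all genes. Without 14 d replicate 1, 2 or 3 there were 2, 12 or 2 at 14 d, beside 16.4%, 18.8% or 17.8%. The genes called lower at 14 d were 3 without 14 d replicate 1, without 14 d replicate 2 or without NoIR replicate 2, beside 14.6%, 17.6% or 15.8%. At 8 d and at 11 d they were 2 without 8 d replicate 3, beside 8.38% and 16.7% of all genes. The joint test called 5 without NoIR replicate 1, 8 without NoIR replicate 2 or 3, 29 without 8 d replicate 2, and 9, 11 or 10 without 11 d replicate 1, 2 or 3. Without 14 d replicate 1 it called 9. The share of all genes that the joint test called in these fits is not given here, so its shifts cannot be set beside those of all genes.

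**Figure D1:**
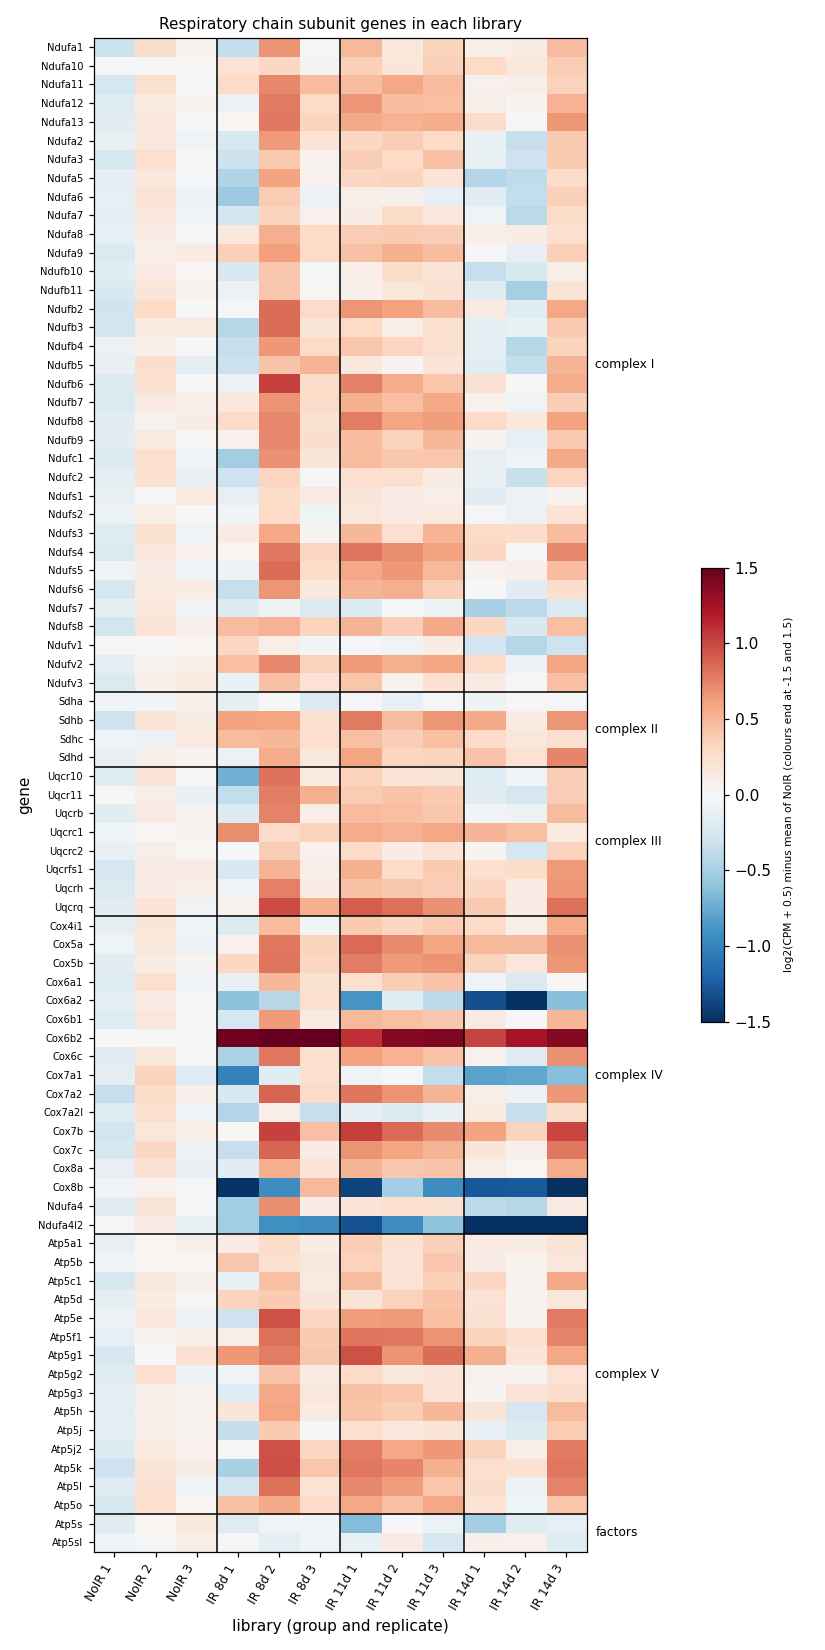
Each row is a gene and each column a library; colour is log2(CPM + 0.5) minus the mean of the 3 NoIR libraries, and colours end at -1.5 and 1.5. Red fills most of the 11 d columns, 8 d replicate 2 and 14 d replicate 3, while Cox6b2 is red and Ndufa4l2 blue in all 9 irradiated libraries.

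The genes moved together from library to library within groups. Of the 81 genes 70 were highest of their group in 8 d replicate 2 and 74 in 14 d replicate 3, where 38.7% and 37.8% of all genes tested were highest. NoIR replicate 1 was the lowest control for 73 genes, 8 d replicate 1 the lowest of its group for 60 and 14 d replicate 2 for 59. The median of the genes, as log2(CPM + 0.5) minus the NoIR mean, was -0.15, 0.14 and 0.02 in the controls. It was -0.10, 0.59 and 0.20 in the 8 d libraries, 0.44, 0.37 and 0.40 at 11 d, and 0.09, -0.05 and 0.40 at 14 d. The 11 d libraries were all above the controls, and at 8 d and 14 d a library stood apart from its group in each case.

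Other short genes moved in step with the subunit genes. The 449 other genes of 500 to 999 exon bases and a mean of at least 5 CPM had medians of -0.14, 0.13 and 0.02 in the controls, -0.04, 0.54 and 0.16 at 8 d, 0.40, 0.31 and 0.30 at 11 d, and 0.10, -0.05 and 0.37 at 14 d. The 4734 genes of 4000 bases or more had medians of -0.27 in 8 d replicate 2, -0.15, -0.14 and -0.15 at 11 d, and -0.14 in 14 d replicate 3. Of the subunit genes 42 have fewer than 1000 exon bases, and these had medians of 0.41, 0.37 and 0.37 at 11 d. The other 39 had medians of 0.48, 0.36 and 0.43 at 11 d, where the 2069 other genes of 1000 to 1999 bases had 0.20, 0.16 and 0.18. The 98 cytosolic ribosomal protein genes had medians of 0.45, 0.34 and 0.37 at 11 d, and the 40 proteasome genes 0.59, 0.52 and 0.57. Library differences by gene length thus moved with the subunit genes, and their part in the result was not tested. The offset described next cannot decide it, because it removes any change that genes of similar length share, whatever its source.

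**Figure D2:**
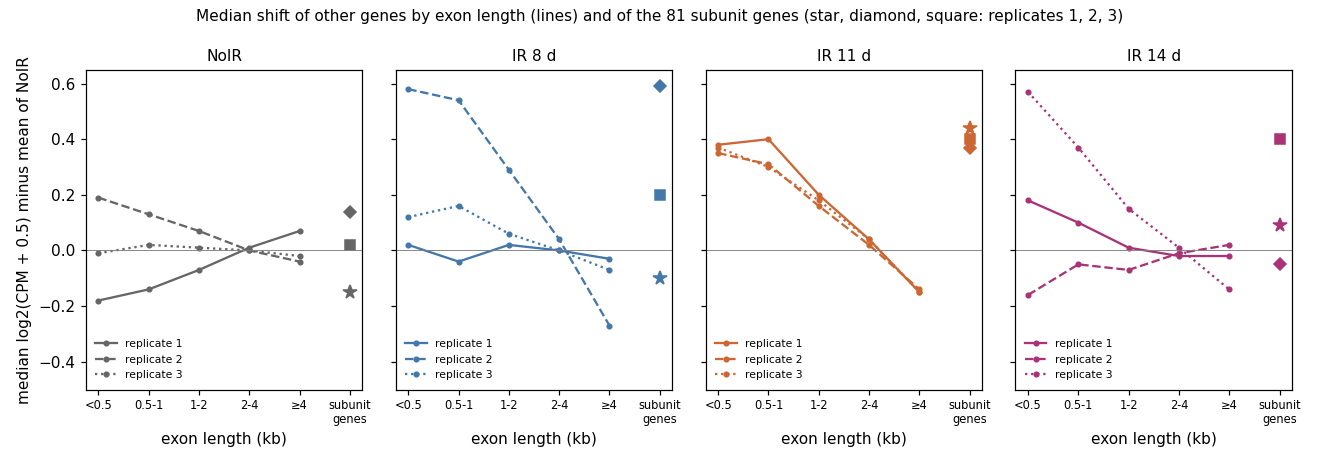
Median log2(CPM + 0.5) minus the NoIR mean in each library (vertical axis) for other genes by exon length in kb (lines) and for the 81 subunit genes (star, diamond and square for replicates 1, 2 and 3). Short genes and the subunit genes were high together in 8 d replicate 2, at 0.54 and 0.59, and in all 11 d libraries.

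When each library's trend with exon length was entered as an offset, an alternative added after seeing the data, the rise of the group was smaller. The median change was then 0.10 at 8 d, 0.16 at 11 d and 0.07 at 14 d, beside 0.02, 0.01 and 0.02 for all genes. The genes called higher were 7, 19 and 11 of 81, against 13.6%, 20.7% and 22.1% of all genes, and those called lower 3, 4 and 8, against 10.9%, 17.7% and 19.5%. All 19 called higher at 11 d were also called without the offset, and 8 were called only without it: Atp5b, Atp5d, Atp5o, Ndufa10, Ndufa12, Ndufa8, Ndufb7 and Ndufs8. At 14 d all 6 genes called lower without the offset were called with it, together with Ndufa4 and Ndufb10. At 14 d Atp5f1, Cox5b, Ndufa10, Ndufb8, Sdhb and Uqcrfs1 were called higher only with the offset and Uqcrc1 only without it, as Uqcrc1 was at 8 d. Cox7a2l and Ndufs7 were called lower with the offset at 8 d and 11 d, and Cox6a2 at 11 d. The exon lengths of Atp5g1, 4912 bases, and of Ndufb2, 4375 bases, are those of long annotated isoforms, and their TPM and offsets rest on these lengths.

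**Figure D3:**
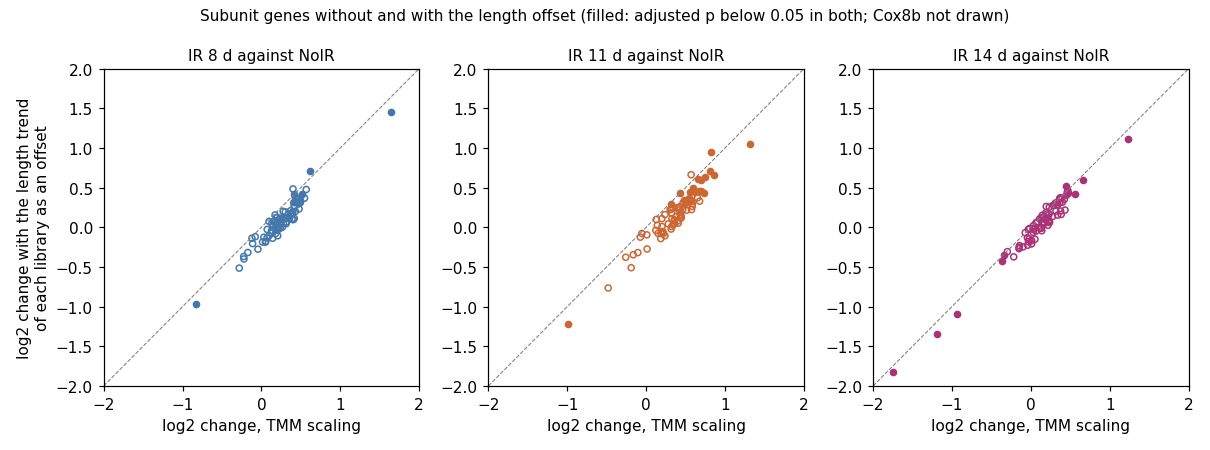
Log2 change of each subunit gene against NoIR without (horizontal) and with (vertical) the length offset at 8, 11 and 14 d; filled points had an adjusted p below 0.05 in both, and Cox8b is not drawn. Most points lie below the dashed line of equality, and at 11 d 19 genes called higher and 1 called lower are filled.

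Promoters of these genes are known for shared short motifs, which are shown so that genes with the same letters can be compared in their calls. RefSeq promoter windows (GRCm38.p6, 250 bases before to 50 after the gene start) matched 65 of the 81 genes, with 70 windows, and motifs were searched on both strands beside all 32851 windows. GCGCATGCG, a motif of nuclear respiratory factor 1 (NRF1), was in 11.4% of the subunit windows and 1.75% of all. CCGGAAG, a motif of the ETS family that includes GABP, was in 22.9% and 8.86%. AAGATGGCG, a motif of YY1, was in 10% and 1.403%, and TCAAGGTCA, a motif of the oestrogen-related receptor ESRRA, in 2.86% and 0.423%. GGGCGG, a motif of SP1, was in 37.1% and 35.7%. No overlap between the motifs searched was removed. The stretches below, in the direction of the gene, show the motif in capitals. Uqcrc1 (chr9:108936668-108936697, plus strand) and Ndufa11 (chr17:56717692-56717721, plus strand) hold the NRF1 letters and were both called higher at 8 d and 11 d.
Uqcrc1: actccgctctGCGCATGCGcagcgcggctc
Ndufa11: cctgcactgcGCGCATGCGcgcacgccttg
Ndufa8, also with these letters, was called higher at 11 d, and Atp5g2, Atp5k, Atp5l, Cox6a1 and Uqcr11, with them as well, were called at no time. Atp5j2, with the YY1 letters, was called higher at 11 d, and Atp5j, Ndufc1 and Ndufs6, with them as well, were called at no time. Ndufa9 (chr6:126849096-126849125, minus strand), Ndufs4 (chr13:114388045-114388074, minus strand) and Ndufs7 (chr10:80249463-80249492, plus strand) also hold the YY1 letters, the first 2 called higher at 11 d and Ndufs7 called lower at 14 d.
Ndufa9: attgtgggagAAGATGGCGgccgccgtccg
Ndufs4: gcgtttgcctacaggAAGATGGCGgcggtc
Ndufs7: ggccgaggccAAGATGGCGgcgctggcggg
Of the genes with the ETS letters, Ndufb7, Ndufs8 and Sdhb were called higher at 11 d and Sdhd at 14 d. The others, Atp5e, Atp5h, Atp5j, Atp5k, Atp5l, Cox6a1, Cox6b1, Cox8a, Ndufb6, Ndufs3, Uqcr11 and Uqcrh, were called at no time. Sdhb (chr4:140961266-140961295, plus strand) and Sdhd (chr9:50603877-50603906, minus strand), partners in complex II, are shown, with the letters in Sdhd as the reverse complement.
Sdhb: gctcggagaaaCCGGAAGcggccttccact
Sdhd: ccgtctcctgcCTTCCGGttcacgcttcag
Genes with the same letters thus differed in their calls. A match is a description of the sequence, not of a bound site.

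By complex, the medians at 11 d were close to each other. They were 0.24, 0.36 and 0.12 for complex I at 8, 11 and 14 d, 0.32, 0.43 and 0.34 for complex II, and 0.29, 0.40 and 0.26 for complex III. For complex IV they were 0.22, 0.44 and 0.23, and for complex V 0.31, 0.43 and 0.19. With the length offset the 11 d medians were 0.16, 0.34, 0.11, 0.12 and 0.25 for complexes I to V. The factors Atp5s and Atp5sl were called at no time, with a median of -0.17 at 11 d.

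**Figure D4:**
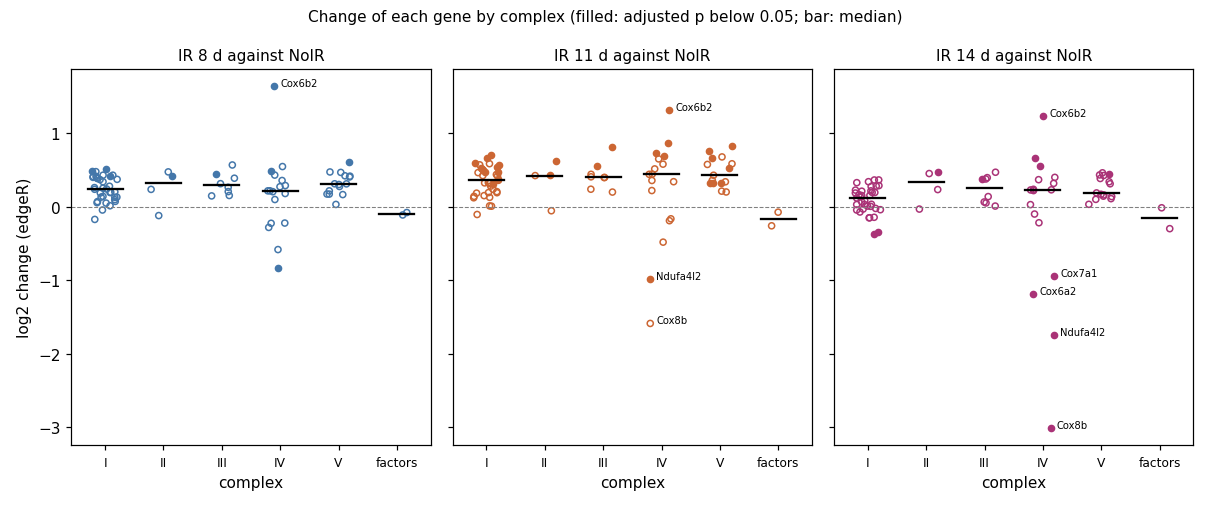
Log2 change of each gene against NoIR (edgeR) by complex at 8, 11 and 14 d; filled points had an adjusted p below 0.05, bars are medians and the dashed line is 0. Complex IV holds the extremes, from Cox8b at -3.01 to Cox6b2 at 1.24 at 14 d.

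Complex I takes electrons from NADH. Of its 35 genes 3 were called higher at 8 d, 12 at 11 d and none at 14 d, where 2 were called lower, Ndufv1 and Ndufs7. Of all genes 13.0%, 19.4% and 20.0% were called higher at these times, and 18.9% lower at 14 d. With the length offset 7 of the 35 were called higher at 11 d, where 20.7% of all genes were. Ndufb8 encodes an accessory subunit of the membrane arm, and its libraries lay at 52.1, 60.3 and 62.95 CPM in NoIR, 71.3, 96.7 and 68.2 on day 8, 99.4, 88.3 and 89.9 on day 11 and 72.00, 65.2 and 88.6 on day 14. All 9 irradiated libraries were above the controls, and the change was 0.66 (SE 0.15, adjusted p = 0.004) at 11 d. Ndufv2, a core iron-sulfur subunit of the NADH-binding module, lay at 189.8, 215 and 221 CPM in NoIR, 285, 343 and 266 on day 8, 323, 304 and 314 on day 11 and 254, 195 and 315 on day 14. It was above the controls in all libraries but 14 d replicate 2, with 0.51 (SE 0.16, adjusted p = 0.0326) at 8 d and 0.59 (SE 0.16, adjusted p = 0.0107) at 11 d. Ndufa9, an accessory subunit near the ubiquinone site, lay at 60.8, 75.02 and 76.97 CPM in NoIR, 90.6, 108 and 86.9 on day 8, 96.2, 103 and 97.7 on day 11 and 70.7, 64.6 and 90.2 on day 14. Its 8 d and 11 d libraries were above the controls and its 14 d libraries overlapped them, with 0.42 (SE 0.14, adjusted p = 0.0468) at 8 d, 0.48 (SE 0.14, adjusted p = 0.018) at 11 d and 0.08 (SE 0.14, adjusted p = 0.685) at 14 d.

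Ndufv1, the flavoprotein where NADH is oxidised (GRCm38 chr19:4007384-4012806, minus strand), lay at 63.6, 65.2 and 66.7 CPM in NoIR, 80.8, 69.9 and 63.6 on day 8, 63.6, 62.5 and 70.6 on day 11 and 53.3, 48.2 and 52.5 on day 14. The 14 d libraries were under all others, and the change was -0.34 (SE 0.12, adjusted p = 0.0288) at 14 d and 0.13 (SE 0.12, adjusted p = 0.455) at 8 d. Ndufs7, a core subunit that hands electrons on towards ubiquinone, lay at 60.5, 74.9 and 64.6 CPM in NoIR, 57.4, 63.1 and 57.1 on day 8, 57.8, 65.4 and 62.9 on day 11 and 47.2, 50.4 and 57.7 on day 14. The 14 d libraries were under the controls, with -0.37 (SE 0.12, adjusted p = 0.0278). Ndufs1, the largest core iron-sulfur subunit, lay at 72.8, 77.1 and 87.2 CPM in NoIR, 72.2, 95.1 and 86.2 on day 8, 89.2, 85.7 and 84.2 on day 11 and 69.98, 74.2 and 81.5 on day 14. Its groups overlapped, and it was called at no time, with 0.13 (SE 0.12, adjusted p = 0.443) at 11 d. The call of Ndufv1 at 14 d was lost in each of the 6 fits without a NoIR or 14 d library, with changes from -0.37 to -0.30, and that of Ndufs7 without 14 d replicate 1 or 2 or NoIR replicate 2 or 3, with -0.45 to -0.27. The 11 d call of Ndufv2 was lost without NoIR replicate 1 and that of Ndufa9 without NoIR replicate 1 or 11 d replicate 2, with changes of 0.52 to 0.63 and 0.38 to 0.54 over the fits. At 8 d, Ndufv2 lost its call in 4 of the 12 and Ndufa9 in 10.

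Complex II oxidises succinate and is also an enzyme of the tricarboxylic acid cycle. Its 2 catalytic subunits differed in their calls. The flavoprotein Sdha lay at 212, 212 and 229.6 CPM in NoIR, 198, 216 and 187 on day 8, 213, 202 and 214 on day 11 and 206, 220.4 and 214 on day 14, and its groups overlapped, with -0.05 (SE 0.11, adjusted p = 0.718) at 11 d. The iron-sulfur subunit Sdhb lay at 70.3, 101 and 94.3 CPM in NoIR, 133, 132 and 103 on day 8, 150.0, 121 and 139 on day 11 and 130.0, 94.4 and 139 on day 14. All 9 irradiated libraries but 14 d replicate 2 were above the controls, with 0.63 (SE 0.17, adjusted p = 0.0118) at 11 d and 0.45 (SE 0.17, adjusted p = 0.0532) at 14 d. The membrane anchor Sdhc lay at 44.1, 43.2 and 50.7 CPM in NoIR, 63.95, 65.2 and 54.5 on day 8, 63.1, 59.5 and 62.9 on day 11 and 55.9, 51.5 and 54.9 on day 14. All 9 irradiated libraries were above the controls, with 0.41 (SE 0.11, adjusted p = 0.0177) at 8 d, 0.43 (SE 0.11, adjusted p = 0.00949) at 11 d and 0.23 (SE 0.11, adjusted p = 0.124) at 14 d. The other anchor, Sdhd, was called only at 14 d, at 0.48 (SE 0.17, adjusted p = 0.0386), with 0.42 (SE 0.17, adjusted p = 0.0644) at 11 d. The 11 d call of Sdhc was kept in all 12 fits without 1 library, while Sdhb lost its call without NoIR replicate 1 or 11 d replicate 1 (0.48 to 0.73 over the fits), Sdhc at 8 d without 8 d replicate 2 or NoIR replicate 1 or 2 (0.36 to 0.49), and Sdhd in 7 of the 12 (0.33 to 0.59).

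Complex III passes electrons from ubiquinol to cytochrome c. Of its 8 genes 1, 2 and 1 were called higher at 8, 11 and 14 d and none lower. The shares of all genes were 13.0%, 19.4% and 20.0% higher and 10.6%, 17.8% and 18.9% lower. The core protein Uqcrc1 (GRCm38 chr9:108936633-108949623, plus strand) lay at 86.7, 92.7 and 93.02 CPM in NoIR, 147, 111 and 114 on day 8, 134, 130.2 and 136 on day 11 and 129, 124 and 100.4 on day 14. All 9 irradiated libraries were above the controls, with 0.45 (SE 0.13, adjusted p = 0.0235) at 8 d, 0.55 (SE 0.13, adjusted p = 0.00461) at 11 d and 0.37 (SE 0.13, adjusted p = 0.036) at 14 d. With the length offset its 8 d and 14 d changes were 0.37 (adjusted p = 0.0836) and 0.37 (adjusted p = 0.0545) in edgeR. The small subunit Uqcrq lay at 52.5, 67.3 and 56.4 CPM in NoIR, 61.3, 115 and 84.6 on day 8, 109.8, 104 and 94.2 on day 11 and 76.8, 63.7 and 104 on day 14. It was above the controls at 11 d, while 8 d replicate 1 and 14 d replicate 2 lay among them, with 0.81 (SE 0.21, adjusted p = 0.00871) at 11 d.

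The Rieske iron-sulfur protein Uqcrfs1 lay at 33.04, 43.1 and 42.9 CPM in NoIR, 33.5, 56.1 and 42.2 on day 8, 57.2, 47.7 and 51.7 on day 11 and 47.1, 47.7 and 61.7 on day 14. The 11 d and 14 d libraries were above the controls, but it was called at no time, with 0.40 (SE 0.18, adjusted p = 0.102) at 11 d and 0.40 (SE 0.18, adjusted p = 0.102) at 14 d; with the length offset it was called at 14 d, at 0.37 (adjusted p = 0.0402, edgeR). The small subunit Uqcr11 lay at 43.9, 46.3 and 40.3 CPM in NoIR, 33.4, 74.5 and 62.8 on day 8, 56.8, 58.8 and 57.3 on day 11 and 38.8, 36.4 and 56.1 on day 14, and the 11 d libraries were above the controls, with 0.41 (SE 0.23, adjusted p = 0.184). The 11 d calls of Uqcrc1 and Uqcrq were kept in all 12 fits without 1 library. The call of Uqcrc1 was lost at 8 d without 8 d replicate 1 or any NoIR library (0.31 to 0.52 over the fits) and at 14 d without 14 d replicate 1 or 2 or any NoIR library (0.30 to 0.48).

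Complex IV, cytochrome c oxidase, held both the genes with the largest rise and the genes with the largest fall among the 81. Of its 17 genes 2 were called higher and 1 lower at 8 d, 4 higher and 1 lower at 11 d, and 3 higher and 4 lower at 14 d. The shares of all genes were 13.0%, 19.4% and 20.0% higher and 10.6%, 17.8% and 18.9% lower. Among the 11 subunits made in most tissues the calls were 1, 3 and 2 higher and none lower, with medians of 0.27, 0.51 and 0.24. Cox4i1, the subunit that binds close to the catalytic core, lay at 214, 268 and 228 CPM in NoIR, 204, 326 and 229 on day 8, 309.5, 293 and 307 on day 11 and 288, 251 and 346 on day 14. The 11 d libraries were above the controls, but it was called at no time, with 0.36 (SE 0.17, adjusted p = 0.118) at 11 d. Its neighbour in the complex, Cox5a, lay at 23.9, 27.9 and 23.5 CPM in NoIR, 26.1, 43.6 and 31.8 on day 8, 45.6, 41.2 and 38.00 on day 11 and 35.1, 35.3 and 40.4 on day 14. A near-identical copy covers 42.0% of the Cox5a transcript, and 41.7% of its exons overlap a gene on the other strand. The 2 may be the same stretch, because overlapping genes were not left out of the search for copies. All libraries at 11 d and 14 d were above the controls, with 0.73 (SE 0.17, adjusted p = 0.00373) at 11 d and 0.56 (SE 0.17, adjusted p = 0.0164) at 14 d.

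Cox5b, a zinc-binding subunit, has 45.1% of its transcript in a near-identical copy. It lay at 119, 143 and 137 CPM in NoIR, 164, 233 and 165 on day 8, 226, 208 and 212 on day 11 and 168, 149 and 210.3 on day 14. All 9 irradiated libraries were above the controls, with 0.49 (SE 0.16, adjusted p = 0.0379) at 8 d and 0.69 (SE 0.16, adjusted p = 0.00384) at 11 d. Cox7b, a small membrane subunit, lay at 83.5, 113 and 108 CPM in NoIR, 102, 206 and 138 on day 8, 207, 183 and 166 on day 11 and 153, 128 and 203 on day 14. It was above the controls at 11 d and 14 d, with 0.86 (SE 0.23, adjusted p = 0.00914) and 0.66 (SE 0.23, adjusted p = 0.0327). The 11 d calls of Cox5a, Cox5b and Cox7b were kept in all 12 fits without 1 library. At 14 d, Cox5a lost its call without 14 d replicate 3 or NoIR replicate 1 or 3 (0.49 to 0.64 over the fits) and Cox7b also without 14 d replicate 1 (0.46 to 0.81), and Cox5b lost its 8 d call in 7 of the 12 (0.31 to 0.58).

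Cox6b2 is the paralog of Cox6b1 known from testis, where it takes the place of Cox6b1 in the complex. It lies at GRCm38 chr7:4751792-4753094, minus strand, in a transcript with no near-identical copy and no exon overlap. Its 250 bases upstream of the RefSeq gene start (GRCm38.p6, chr7:4753095-4753344, minus strand) are shown because its change was the largest rise of the group, with the SP1 letters in capitals; the other motifs searched are not in its window.
Cox6b2: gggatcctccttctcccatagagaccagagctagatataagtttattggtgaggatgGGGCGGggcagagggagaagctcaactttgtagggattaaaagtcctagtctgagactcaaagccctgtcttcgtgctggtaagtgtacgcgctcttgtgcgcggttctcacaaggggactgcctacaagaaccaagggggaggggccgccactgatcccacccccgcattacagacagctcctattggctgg
Its libraries lay at 17.97, 17.97 and 18.1 CPM in NoIR, 49.9, 64.8 and 54.3 on day 8, 39.1, 47.5 and 48.5 on day 11 and 36.9, 42.9 and 47.4 on day 14. The controls were almost equal, and every irradiated library was above them. The change was 1.65 (SE 0.14, adjusted p = 4.63e-06) at 8 d, 1.32 (SE 0.14, adjusted p = 8.91e-06) at 11 d and 1.24 (SE 0.14, adjusted p = 8.8e-06) at 14 d, a mean of 18.00 ± 0.0562 CPM in controls and 56.3 ± 7.65 CPM, 45.03 ± 5.13 CPM and 42.4 ± 5.27 CPM at the 3 times (SD, n = 3). The calls were kept under all 22 alternative settings, with the length offset at 1.45, 1.04 and 1.12. Its partner Cox6b1 lay at 80.4, 103 and 91.9 CPM in NoIR, 76.2, 142 and 99.3 on day 8, 128, 125 and 121 on day 11 and 99.5, 91.9 and 129 on day 14, and was called at no time, with 0.44 (SE 0.19, adjusted p = 0.0889) at 11 d.

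**Figure D5:**
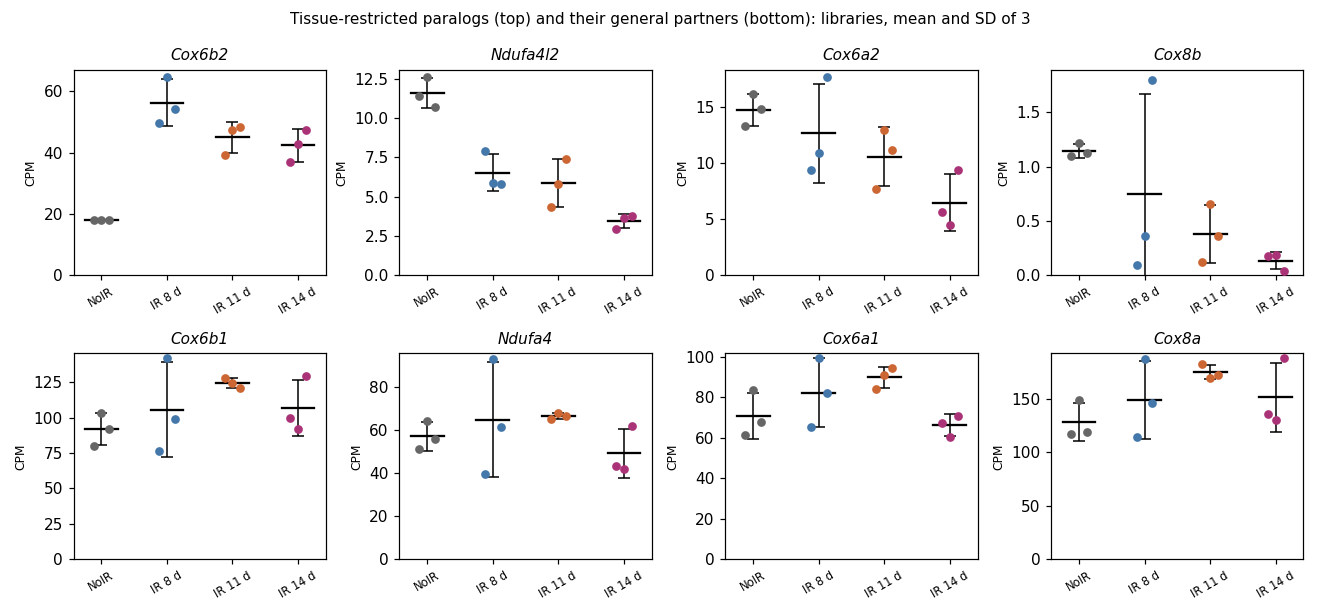
CPM in each library (points) with the group mean and SD of 3 (bars, cut at 0) for 4 paralogs found in few tissues (top) and their partners made in most tissues (bottom). Cox6b2 rose above its controls at each time while Ndufa4l2 fell, from a mean of 11.6 to 3.43 CPM at 14 d.

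Ndufa4l2 is the paralog of Ndufa4 that is known as a target of the hypoxia-inducible factor and as a marker of lung pericytes. It lies at GRCm38 chr10:127514967-127517154, plus strand, and 3.4% of its exons overlap Shmt2 on the other strand. Its libraries lay at 11.4, 12.6 and 10.7 CPM in NoIR, 7.87, 5.86 and 5.83 on day 8, 4.35, 5.81 and 7.41 on day 11 and 2.92, 3.62 and 3.76 on day 14. Every irradiated library was under every control, with -0.83 (SE 0.20, adjusted p = 0.00836) at 8 d, -0.98 (SE 0.20, adjusted p = 0.00169) at 11 d and -1.75 (SE 0.21, adjusted p = 1.34e-05) at 14 d, and the calls were kept under all 22 alternative settings. Ndufa4 lay at 51.01, 64.4 and 55.98 CPM in NoIR, 39.7, 92.9 and 61.6 on day 8, 65.3, 67.9 and 66.6 on day 11 and 43.3, 42.1 and 62.1 on day 14, and its 11 d libraries were just above the controls while its 14 d libraries overlapped them, with -0.22 (SE 0.24, adjusted p = 0.507) at 14 d. Of 9 pericyte markers 3, 6 and 5 were called lower and 1 higher (Rgs5) at the 3 times. The shares of all genes were 10.6%, 17.8% and 18.9% lower and 13.0%, 19.4% and 20.0% higher. The sum of the 9 markers ran from 245 to 257 CPM in NoIR, from 170.2 to 183 on day 8, from 133 to 161 on day 11 and from 121 to 141 on day 14. Among them Pdgfrb, a receptor of pericytes, changed by -0.71, -1.09 and -1.14, Trpc6 by -0.99, -1.04 and -1.49, and Higd1b by -0.72, -0.83 and -1.18. Rgs5, a signalling regulator, went the other way, by 2.49, 1.99 and 1.896 (adjusted p = 7.93e-05, 0.00022 and 0.000232, edgeR), and Kcnj8, a potassium channel, changed by 0.37, 0.14 and 0.46 without a call. Cox4i2, the complex IV paralog known from lung pericytes and smooth muscle, is 1 of the 9 markers and is part of their calls and sum. It changed by -0.37 (adjusted p = 0.152), -0.62 (adjusted p = 0.0137) and -1.29 (adjusted p = 5.53e-05) in edgeR. The part of these markers in the change of Ndufa4l2 was not tested.

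Cox6a2, Cox7a1 and Cox8b are the isoforms of heart and skeletal muscle, and all 3 were called lower at 14 d. Cox6a2 (GRCm38 chr7:128205435-128206387, minus strand), with 10.3% of its exons shared with Itgad on the other strand, lay at 13.3, 16.2 and 14.9 CPM in NoIR, 9.42, 10.9 and 17.7 on day 8, 7.73, 12.9 and 11.1 on day 11 and 5.62, 4.49 and 9.39 on day 14. The 14 d libraries were under the controls and 8 d replicate 3 was above them, with -0.22 (SE 0.28, adjusted p = 0.609) at 8 d, -0.48 (SE 0.28, adjusted p = 0.19) at 11 d and -1.19 (SE 0.28, adjusted p = 0.00405) at 14 d. Cox7a1 lay at 2.56, 3.76 and 2.46 CPM in NoIR, 1.17, 2.52 and 3.501 on day 8, 2.75, 2.81 and 2.13 on day 11 and 1.44, 1.47 and 1.67 on day 14. Its 14 d libraries were under the controls, with -0.94 (SE 0.33, adjusted p = 0.0368), a call that was lost without any 1 of the 14 d libraries or NoIR replicate 2 (-1.05 to -0.72 over the fits). Cox8b, with 93 counts in the 3 NoIR libraries and 10 at 14 d, lay at 1.09, 1.22 and 1.12 CPM in NoIR, 0.0937, 0.36 and 1.79 on day 8, 0.127, 0.656 and 0.363 on day 11 and 0.18, 0.189 and 0.0417 on day 14. Its controls were close to each other and its 8 d libraries spread on both sides of them, with -3.01 (SE 0.85, adjusted p = 0.0115) at 14 d. The 14 d calls of Cox6a2 and Cox8b were kept under all 22 alternative settings.

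The general partners of the muscle isoforms showed no call. Cox6a1 lay at 61.3, 83.5 and 67.8 CPM in NoIR, 65.3, 99.6 and 82.1 on day 8, 83.9, 90.9 and 94.5 on day 11 and 67.3, 60.3 and 70.9 on day 14, with -0.10 (SE 0.16, adjusted p = 0.657) at 14 d. Cox8a lay at 118, 149 and 119 CPM in NoIR, 115, 187 and 146 on day 8, 182, 169.8 and 173 on day 11 and 136, 130.4 and 189 on day 14, with 0.24 (SE 0.18, adjusted p = 0.333) at 14 d. Cox7a2 lay at 39.7, 61.4 and 53.6 CPM in NoIR, 43.1, 93.1 and 61.98 on day 8, 89.2, 81.2 and 72.5 on day 11 and 53.97, 47.9 and 79.6 on day 14, with 0.23 (SE 0.25, adjusted p = 0.51) at 14 d. In each of these the 14 d libraries overlapped the controls. Cox7a2l, which links complexes III and IV in supercomplexes, lay at 117, 159.6 and 129 CPM in NoIR, 98.9, 143 and 105 on day 8, 123, 116 and 124 on day 11 and 148, 105 and 161 on day 14. Its groups overlapped at all times, with -0.22 (SE 0.18, adjusted p = 0.401) at 8 d; with the length offset it was -0.37 (adjusted p = 0.0409, edgeR).

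Heart muscle RNA varied between libraries. The 12 cardiac muscle markers summed to between 46.2 and 125 CPM in NoIR, 45.9 and 259.9 on day 8, 54.2 and 106 on day 11, and 38.6 and 59.4 on day 14. Myh6, a myosin of heart muscle, was at 3.32, 9.34 and 27.0 CPM in the controls, 2.86, 3.87 and 71.8 at 8 d, 8.16, 5.53 and 20.6 at 11 d, and 0.765, 1.09 and 8.10 at 14 d. Cox6a2 and Cox8b were highest in 8 d replicate 3, as Myh6 was. In the controls Cox8b stayed between 1.09 and 1.22 CPM while Myh6 spread from 3.32 to 27.0. None of the 11 cardiac markers tested was called at 14 d (edgeR), and their median change was -0.94, beside 0.99 at 8 d and -0.18 at 11 d. They did not move alike: Mybpc3, a protein of the thick filament, was called higher at 8 d (2.58, adjusted p = 0.0396) and 11 d (2.35, adjusted p = 0.0453) in edgeR, with means from 0.147 CPM in controls to 0.891 at 8 d, and Actn2 changed by 0.78 at 14 d (adjusted p = 0.35). At 14 d 20.0% of all genes were called higher and 18.9% lower. Of the skeletal muscle markers 8 of 12 were tested, with 2 higher and 1 lower at 14 d and sums of 12.5 to 19.3 CPM in controls and 19.5 to 23.7 at 14 d. Of the brown adipocyte markers 5 of 7 were tested, with 1 higher and 2 lower at 14 d and sums of 36.7 to 70.8 and 34.3 to 55.3 CPM, and the defining Ucp1 and Elovl3 were too low to test. The part of these cells in the fall of the muscle isoforms was not tested.

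Complex V makes ATP with an F1 head, a ring of c subunits and a peripheral stalk. Of its 15 genes 1, 7 and 1 were called higher at 8, 11 and 14 d, none lower, and all 15 had a log2 change above 0 at each time. The shares of all genes were 13.0%, 19.4% and 20.0% higher and 10.6%, 17.8% and 18.9% lower. The c subunit is made from 3 genes with the same mature protein. Atp5g1 (GRCm38 chr11:96068852-96075670, minus strand) lay at 18.8, 22.4 and 25.98 CPM in NoIR, 35.2, 38.1 and 29.4 on day 8, 43.3, 35.8 and 40.02 on day 11 and 32.3, 25.7 and 33.3 on day 14. All irradiated libraries but 14 d replicate 2 were above the controls, with 0.61 (SE 0.16, adjusted p = 0.0116) at 8 d, 0.83 (SE 0.16, adjusted p = 0.000976) at 11 d and 0.44 (SE 0.16, adjusted p = 0.0368) at 14 d. Atp5g2 lay at 45.6, 61.3 and 48.3 CPM in NoIR, 49.1, 69.2 and 56.6 on day 8, 63.1, 57.8 and 58.8 on day 11 and 53.8, 52.99 and 59.6 on day 14, and Atp5g3 at 69.97, 82.3 and 79.97 CPM in NoIR, 67.7, 115 and 87.2 on day 8, 105, 104 and 89.5 on day 11 and 79.6, 88.7 and 92.9 on day 14. Neither was called at any time, with 0.21 (SE 0.15, adjusted p = 0.271) and 0.36 (SE 0.16, adjusted p = 0.0982) at 11 d.

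In the F1 head the catalytic subunit Atp5b lay at 549, 577 and 583 CPM in NoIR, 754, 673 and 641 on day 8, 723, 655 and 752 on day 11 and 617, 589 and 638 on day 14. All irradiated libraries were above the controls, with 0.32 (SE 0.12, adjusted p = 0.0494) at 11 d, and 0.23 (adjusted p = 0.121) with the length offset. Atp5d, of the central stalk, lay at 64.5, 77.1 and 72.3 CPM in NoIR, 89.6, 93.5 and 80.9 on day 8, 81.4, 90.8 and 95.8 on day 11 and 82.5, 73.02 and 80.1 on day 14, and the 11 d change was 0.32 (SE 0.12, adjusted p = 0.0407). In the peripheral stalk, Atp5f1 lay at 237, 265 and 276 CPM in NoIR, 277, 459.8 and 339 on day 8, 451, 448 and 412 on day 11 and 327, 309 and 435 on day 14. All irradiated libraries were above the controls, with 0.75 (SE 0.18, adjusted p = 0.0045) at 11 d. Atp5o lay at 96.9, 138 and 119 CPM in NoIR, 158, 173 and 142 on day 8, 174, 160.1 and 174 on day 11 and 136, 111 and 156 on day 14, with 0.52 (SE 0.15, adjusted p = 0.0147) at 11 d. Near-identical copies, overlapping genes included, cover 64.6% of the Atp5f1 transcript and 92.0% of that of Atp5o, so these counts may be split or shared. The 11 d calls of Atp5g1 and Atp5f1 were kept in all 12 fits without 1 library. Atp5b lost its call in 9 of the 12 (0.27 to 0.37 over the fits), Atp5d in 5 (0.26 to 0.39) and Atp5o without NoIR replicate 1 (0.40 to 0.65). Atp5g1 lost its 8 d call without NoIR replicate 1 (0.50 to 0.73) and its 14 d call without 14 d replicate 1 or 3 or NoIR replicate 1 or 2 (0.33 to 0.57).

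Between the irradiated times few subunit genes differed. From 8 to 11 d edgeR called 0 of 81 (2.14% of all genes), with 1 at an unadjusted p below 0.05, as did DESeq2 and limma-voom, and the median change was 0.12. From 11 to 14 d edgeR called 0 (1.8% of all genes), with 10 at an unadjusted p below 0.05, all lower. For the same step DESeq2 called 1, lower, with 11 unadjusted, and limma-voom 0 with 11. The median was then -0.24, and 4 of 81 genes had a change above 0. Without 14 d replicate 3 that median was -0.42, and without 11 d replicate 1 edgeR called 1 gene lower.

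From 8 to 14 d, 3 genes were called lower and none higher, against 7.29% and 8.1% of all genes. They were Cox6a2 at -0.97 (SE 0.28, adjusted p = 0.034), Ndufa4l2 at -0.92 (SE 0.21, adjusted p = 0.0088) and Ndufv1 at -0.48 (SE 0.12, adjusted p = 0.0126). Ndufa4l2 was lower in every 14 d library than in every 8 d library, as was Ndufv1 and 14.9% of all genes were apart in this way, and the Cox6a2 groups nearly met, at 9.42 CPM in 8 d replicate 1 and 9.39 in 14 d replicate 3. The call of Cox6a2 was lost without 8 d replicate 3 or 14 d replicate 1 or 2 (-1.33 to -0.65 over the fits), that of Ndufa4l2 without 14 d replicate 1 (-1.0 to -0.77) and that of Ndufv1 without 14 d replicate 2 (-0.55 to -0.38). When only the 8 d and 14 d groups were fitted, Cox6a2 and Ndufv1 lost the call and Ndufa4l2 kept it. The genes called lower were 1 without 14 d replicate 1 or 2, 5 without 14 d replicate 3 and 8 without 8 d replicate 1.

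Genes that work with the complexes were described from lists of the pathway. Of 46 assembly factors tested, 2, 9 and 2 were called higher at the 3 times and none lower, with medians of 0.13, 0.22 and 0.07. Sdhaf1, which inserts iron-sulfur clusters into complex II, changed by 0.65 (adjusted p = 0.0196) at 8 d and 0.63 (adjusted p = 0.0155) at 11 d, and Ndufaf5, a complex I factor, by 0.56 (adjusted p = 0.0199) and 0.63 (adjusted p = 0.00654) in edgeR. Of 18 electron carriers and adenine nucleotide exchange genes, 2, 8 and 2 were higher and none lower, with medians of 0.22, 0.37 and 0.17. Cycs, which encodes somatic cytochrome c, went from 75.2 ± 9.11 to 151 ± 11.6 CPM at 11 d (SD over 3 libraries). By edgeR its log2 change was 1.004 with an SE of 0.23 and an adjusted p of 0.00351. Cyc1, the haem subunit of complex III that the name rule does not catch, changed by 0.51, 0.59 and 0.40 and was called at all 3 times. Of 77 mitochondrial ribosomal protein genes, 12, 33 and 11 were higher and 0, 0 and 1 lower, with medians of 0.30, 0.39 and 0.22.

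The tricarboxylic acid cycle, which feeds the chain, had 0, 3 and 0 of 17 genes higher and none lower, with medians of 0.09, 0.15 and -0.05. Fh1 (fumarase) changed by 0.44 and Mdh2 (malate dehydrogenase) by 0.35 at 11 d, both called, and Mdh2 lost its call with the length offset (0.21, adjusted p = 0.0846, edgeR). Of 16 genes of mitochondrial fatty acid oxidation 1 was higher at each time and 1, 2 and 2 were lower. Cpt1a, which admits fatty acids to mitochondria, changed by -0.43 and -0.49 at 8 and 11 d, both called, and by 0.04 at 14 d. Of 13 regulators of mitochondrial biogenesis 1, 1 and 3 were higher and 1 lower at each time. The coactivator Ppargc1b went from 2.01 ± 0.618 to 5.45 ± 1.79 CPM at 14 d (SD over 3 libraries), and by edgeR its log2 change was 1.44 with an SE of 0.33 and an adjusted p of 0.00274. The related Pprc1 changed by 0.57 at 11 d and 0.51 at 14 d. Polg, the mitochondrial DNA polymerase, changed by -0.44, -0.49 and -0.43 and was called lower at all 3 times. With the length offset Polg changed by -0.28 (adjusted p = 0.0965), -0.27 (adjusted p = 0.0793) and -0.37 (adjusted p = 0.0207) in edgeR, so that only the 14 d call was kept. Calls in these lists stand beside backgrounds of 13.0%, 19.4% and 20.0% of all genes higher and 10.6%, 17.8% and 18.9% lower.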

How the data were processed

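The values were counts per gene symbol, deposited by the authors, for 12 libraries of mouse lung. Alignment was with TopHat, to mm10, per the submitters' processing notes; not given in the sources used here are the counting program, its annotation and its strand setting. Trizol RNA went into NEBNext Ultra II Directional libraries, per the labels' protocols. Lines with the same symbol (35 symbols, 79 lines) were summed. Exon lengths and coordinates are from GENCODE M21 (GRCm38), in which all 81 genes matched.

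The 12 libraries entered 1 fit in edgeR 4.0.16 (R 4.3.3), tested by quasi-likelihood F, with TMM scaling and the default expression filter. The test was checked on simulated data. CPM use the scaled library sizes. The alternatives left out each library in turn, or fitted the compared groups on their own, or used DESeq2 1.42.0 or limma-voom (limma 3.58.1), or added a replicate block. Others dropped Rn45s and haemoglobin genes, asked for 10 counts throughout 1 group, did not filter, or scaled by library size or by median of ratios. The length offset is a lowess curve (span 0.3) of each library's log2 deviation from the gene mean on log exon length. Genes were named as the lowest p in the joint test per complex, the paralog pairs, the catalytic core and the extreme changes, and up to 3 per pathway list by joint p, of which not all are printed. Sdhd, the promoter examples, Myh6 and Cyc1 as an uncaught subunit were picked with their values in view. The members and lists were chosen with earlier results of these data known.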

Additional observations from a re-analysis of the deposited data

Results flagged for a closer look

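In 3 genes the change against NoIR differed between 14 d and 8 d in the test of the difference itself, with edgeR's quasi-likelihood test at a Benjamini-Hochberg adjusted p below 0.05. The difference was -0.97 for Cox6a2 (adjusted p = 0.034), -0.92 for Ndufa4l2 (adjusted p = 0.0088) and -0.48 for Ndufv1 (adjusted p = 0.0126). Both changes share the NoIR libraries, so the difference is that between the 14 d and 8 d libraries. All 3 were lower in all 14 d libraries than in all 8 d libraries, where 14.9% of all genes tested were. With only these groups in the fit, the calls of Cox6a2 and Ndufv1 were lost.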

How the results depend on the processing

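None of the 52 gene calls changed direction under the 22 alternative settings, and 17 were kept under all of them. The cause of the shifts in counts was not tested. At 8 d the genes called higher were 15 with DESeq2 (18.5% beside 14.3% of all genes) and 18 with library size alone (22.2% beside 14.8%). They were 4 with only the groups compared (4.94% beside 11.2%), and those called lower were 3 with the length offset (3.7% beside 10.9%). At 11 d the genes higher were 53 (65.4% beside 22.6% of all genes) and lower 2 (2.47% beside 20.7%) with only the groups compared. With the length offset 4 were lower at 11 d (4.94% beside 17.7%) and the median was 0.16. At 14 d the genes higher were 10 with DESeq2 (12.3% beside 21.2%) and 11 with the length offset (13.6% beside 22.1%). From 11 to 14 d DESeq2 called 1 lower, beside 441 among all genes. From 8 to 14 d DESeq2 called 5 lower (1472 among all genes) and the fit of only the groups compared 1 lower (851). The length offset gave 1 higher from 8 to 14 d (1476 among all genes). With each library left out, the genes higher at 8 d ranged from 1 to 20, those lower from 1 to 2 and the median from 0.03 to 0.41. At 11 d the ranges were 10 to 46, 1 to 2 and 0.31 to 0.46, and at 14 d 1 to 14, 3 to 6 and 0.05 to 0.24. Of all genes 9.05% to 13.1%, 14.7% to 20.9% and 16.4% to 21.3% were called higher in these fits at 8, 11 and 14 d. Those called lower were 6.52% to 10.9%, 11.9% to 19.6% and 14.6% to 20.2% of all genes. From 11 to 14 d 0 to 1 were lower and the median lay between -0.42 and -0.15, from 8 to 14 d 1 to 8 were lower, and the joint test called 5 to 29. Deviations of same-numbered libraries correlated at -0.35 to 0.29 over 18 pairs, 5 of them over 0.1. Those of differently numbered libraries correlated at -0.44 to 0.46 over 36 pairs, 7 of them over 0.1. These correlations cannot decide whether the replicate numbers pair the samples. With the replicate block the genes called higher were 6, 24 and 4 at the 3 times, beside 12.4%, 18.9% and 19.7% of all genes. Those called lower were then 1, 1 and 6, beside 10.1%, 17.0% and 18.5%. Changes of low genes such as Cox8b rest on few counts.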

Other observations

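Within complex I the 7 core genes, 18 accessory genes named A, C or S and 10 accessory genes named B differed in their medians. The 11 d medians were 0.14, 0.37 and 0.38, and those at 14 d 0.03, 0.15 and 0.09. Both complex I genes called lower at 14 d, Ndufv1 and Ndufs7, are core genes. Within complex V the 3 small membrane subunits had the highest median at 11 d, 0.67, beside 0.32 for the 5 F1 genes, 0.36 for the 3 c subunit genes and 0.48 for the 4 peripheral stalk genes. These are descriptions of few genes, and the differences between the groups were not tested.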
